A study of Bos taurus with 24 samples.

Results

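HAX1, FAM162A, HINT2 and TMEM11 are nuclear genes for mitochondrial proteins that are not subunits of the respiratory chain. The 4 genes were taken by symbol from the 11306 rows of the deposited expression table and were chosen by their measured FPKM, which was far lower in MII than in GV oocytes. Therefore their difference between GV and MII oocytes is described here without a test, while the comparison of summer with spring played no part in the choice and was tested. Each symbol is listed once, and all 4 genes were among the 9526 genes with more than 0.1 FPKM (fragments scaled for gene length and sequencing depth) in at least 1 library.

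HAX1 restrains apoptosis from within mitochondria, where it brings the protease HTRA2 to the membrane protease PARL and binds the disaggregase CLPB. FAM162A is a target of the hypoxia factor HIF-1 and promotes cell death through mitochondria. HINT2 is the mitochondrial member of the histidine triad family of nucleotide hydrolases and has been linked to steroid and lipid metabolism. TMEM11 is a mitochondrial membrane protein needed for normal cristae, and it has been found with the MICOS complex that shapes them. A fully grown GV oocyte is nearly silent in transcription and lives on stored mRNA, much of which is translated or degraded while the oocyte matures to MII, and all of its mitochondria are passed to the embryo.

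The study sequenced mRNA of bovine oocytes to ask how the hot season affects them. Oocytes were aspirated in May (spring) or July (summer) from non-lactating, non-pregnant, Angus-based crossbred Bos taurus beef cows kept under the same management in both seasons. GV (germinal vesicle, immature) oocytes were taken as collected, MII (metaphase II, mature) oocytes came from in vitro maturation with FSH and serum, and cumulus cells were removed from both. The 4 groups (spring GV, summer GV, spring MII and summer MII) had 6 libraries each, and each library was a pool of 4 oocytes that the methods assign to 1 animal, although the labels speak of single cells being lysed. MII oocytes were therefore matured outside the cow, whatever the season. The methods describe repeated collection from 1 herd over both seasons, and which cow gave which library is not given in the sources used here.

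The deposited values carry the read numbers. After 0.01 was subtracted, the values of a library were whole multiples of 1 step once multiplied by the distance from start to stop of the gene, which held for 98.3% of 70286 low values not used to find the step (within 0.05 of a whole number, where 10% would lie by chance). A step was taken as 1 read, although it could be a fixed number of reads, and intervals computed from these reads cover counting error only. FPKM is thus per kilobase of gene span, introns included, so that levels of different genes are compared per kilobase of span. Libraries held between 324653 and 28207688 reads, with a median of 3836569. In 3 libraries the size of the step, set against that of spring GV replicate 1, gave the lowest relative depths. These were 0.05649 for replicate 6 of the spring GV group, 0.1492 for replicate 6 of the spring MII group and 0.3926 for replicate 2 of the summer GV group. They had 324653, 1028740 and 2543611 reads and are called the libraries of low depth. By reads alone, summer GV replicate 2 (0.663 of the median library) was close to spring GV replicate 3 (0.701), which is not among them. The 3 libraries of low depth also had the highest summed FPKM of 19 cumulus and granulosa cell markers in their groups (588, 162 and 124, against group medians of 47.8 to 58.6). A few abundant markers weighed most in these sums, with KRT18 at 392 and KRT8 at 146 FPKM in spring GV replicate 6 and STAR at 64.3 in summer GV replicate 2. Over all libraries, spring GV replicate 6 had the highest value of 4 markers, spring MII replicate 6 of 3 and summer GV replicate 2 of 1. Spring GV replicate 3, with a sum of 180, had the highest FPKM of 7 of the 19 markers, among them VIM at 75.7 (next library 2.16), INHA at 37.2 (1.73), AMH at 13.4 (0.363) and INHBA at 2.82 (0.515). FSHR, CYP19A1 and CD44 were not above 0.1 FPKM in any library. The summed FPKM of 14 oocyte markers, GDF9 and the zona pellucida genes among them, was between 839 and 2240 in all libraries.

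HAX1 lies on the minus strand at chr3:16307941-16310582 of UMD3.1.1, the assembly named in the methods, and spans 2.64 kb. Its FPKM in spring GV oocytes ran from 19.4 through a median of 36.6 to 44.6. In summer GV oocytes the lowest value was 34.7, the median 38.6 and the highest 43.6. In spring MII oocytes it was between 1.78 and 6.32 with a median of 3.98, and in summer MII oocytes between 1.34 and 3.54 with a median of 2.41. No MII library reached the level of any GV library of its season. The group means were 33.9 ± 9.02 and 38.5 ± 3.32 FPKM in GV oocytes and 3.96 ± 1.84 and 2.40 ± 0.764 in MII oocytes (spring and summer, SD, n = 6), so that 11.7% of the GV mean was left in spring and 6.24% in summer. HAX1 had the highest mean FPKM of the 4 genes in each group, which is a level per kilobase of span. By mean share of the reads of a library it was the highest of the 4 in spring MII oocytes only.

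FAM162A lies on the plus strand at chr1:67422932-67443498 and spans 20.6 kb. Its FPKM was between 5.72 and 11.8 in spring GV oocytes, with a median of 8.99, and between 4.80 and 7.90 in summer GV oocytes, with a median of 6.51. In MII oocytes it was between 0.207 and 0.777 in spring (median 0.367) and between 0.186 and 0.562 in summer (median 0.318). The GV and MII libraries were far apart in both seasons: the lowest GV value was 7.36 times the highest MII value in spring and 8.54 times in summer. Means of 8.94 ± 2.33 and 6.43 ± 1.53 FPKM in GV oocytes stood against 0.397 ± 0.203 and 0.337 ± 0.133 in MII oocytes (spring and summer, SD, n = 6), and 4.44% and 5.24% were left. FAM162A had the lowest mean FPKM of the 4 genes in every group, an order that holds per kilobase of span. By mean share of the reads of a library, FAM162A was the highest of the 4 in spring GV and in summer MII oocytes. By that share it was below TMEM11 alone in summer GV oocytes and below HAX1 alone in spring MII oocytes. In spring GV oocytes its median was 1321.5 reads, against 802.5 for HAX1.

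The whole of FAM162A lies inside the span of CCDC58 on the opposite strand (chr1:67398383-67457626). CCDC58, a mitochondrial protein linked to protein import, had 4.14 and 4.46 FPKM in GV and 2.35 and 2.72 in MII oocytes (spring and summer), and the libraries of GV oocytes (1.48 to 6.45) and MII oocytes (0.827 to 3.40) overlapped. It was not called in either season (limma log2 fold change −0.58, SE 0.29, adjusted p = 0.155 in spring and −0.51, SE 0.23, adjusted p = 0.119 in summer). The library kit does not mark the strand, so reads in sequence shared by both genes cannot be told apart.

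HINT2 lies on the minus strand at chr8:60390945-60393500 and spans 2.56 kb. Its FPKM in spring GV oocytes was between 14.7 and 24.2 with a median of 16.9, and in summer GV oocytes between 2.03 and 18.4 with a median of 13.2. In MII oocytes it was between 0.857 and 2.63 in spring (median 1.87) and between 0.913 and 2.90 in summer (median 1.13). The seasons differed in overlap. In spring the lowest GV value was 5.59 times the highest MII value, while in summer GV replicate 2, at 2.03 FPKM from 21 reads (95% Poisson interval 1.26 to 3.09), lay below MII replicate 1 at 2.90. The other 5 summer GV libraries were at 13.2, 15.0, 13.2, 18.4 and 10.0. Means of 17.9 ± 3.40 and 11.99 ± 5.59 FPKM in GV oocytes stood against 1.92 ± 0.644 and 1.44 ± 0.767 in MII oocytes (spring and summer, SD, n = 6), which left 10.7% and 11.99%.

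TMEM11 lies on the minus strand at chr19:35816341-35825643 and spans 9.3 kb. Its FPKM was between 7.36 and 23.0 in spring GV oocytes (median 17.2) and between 9.40 and 17.8 in summer GV oocytes (median 15.4). In MII oocytes it was between 0.288 and 0.984 in spring (median 0.541) and between 0.277 and 1.06 in summer (median 0.457). All MII libraries lay below all GV libraries of their season. Means of 15.6 ± 6.06 and 14.6 ± 3.24 FPKM in GV oocytes stood against 0.596 ± 0.250 and 0.546 ± 0.278 in MII oocytes (spring and summer, SD, n = 6). TMEM11 kept 3.82% of its GV mean in spring and 3.74% in summer, the smallest share among the 4 genes in each season. The lowest MII value, in spring MII replicate 6, rested on 4 reads (0.288 FPKM, 95% Poisson interval 0.0857 to 0.721).

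**Figure D1:**
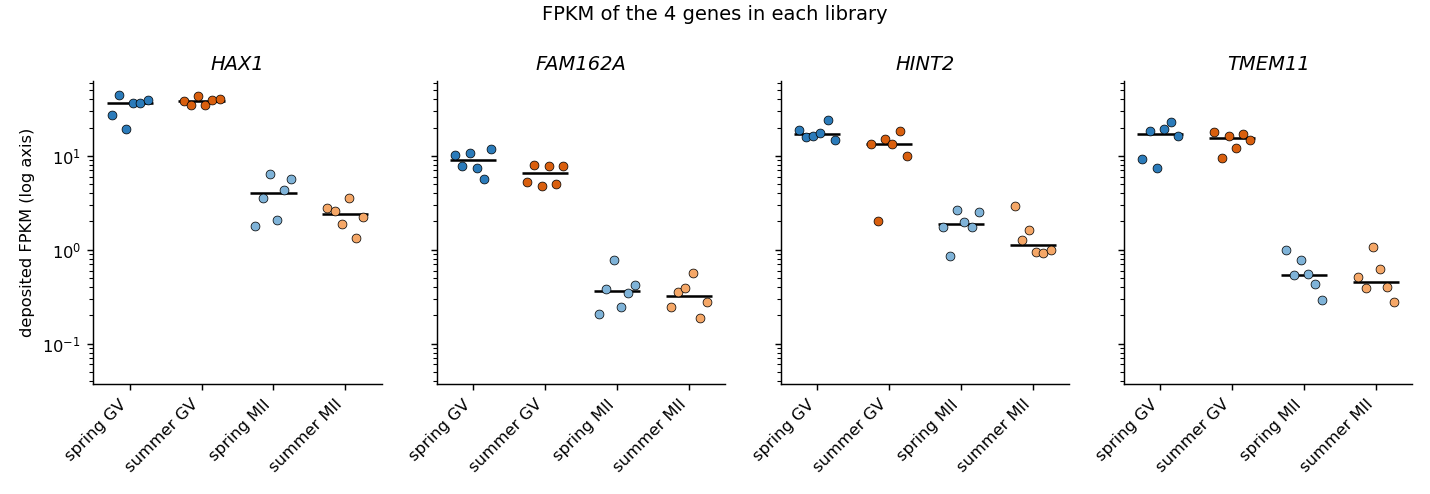
Deposited FPKM on a log axis in each of the 24 libraries, 1 panel per gene; points are libraries in the order of their replicate numbers and black bars are group medians. The GV points of HAX1, FAM162A and TMEM11 sit above all their MII points, and for HINT2 summer GV replicate 2 sits at 2.03, among the MII libraries.

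Read against all genes, the members stood at the low end of the change, as the choice fixed. On the log2(FPKM + 1) scale the change from GV to MII in spring was −2.86 (SE 0.29) for HAX1, −2.81 (SE 0.19) for FAM162A, −2.71 (SE 0.21) for HINT2 and −3.30 (SE 0.27) for TMEM11, and in summer −3.57 (SE 0.17), −2.45 (SE 0.16), −2.26 (SE 0.40) and −3.32 (SE 0.18) in the same order. The median over all 9526 genes was −0.03 in spring and −0.02 in summer. By size of the fall TMEM11 stood at place 11 in spring and 15 in summer and HAX1 at 45 and 8, with FAM162A at 50 and 98 and HINT2 at 61 and 152. Over all genes, 8.25% were called lower in MII oocytes in spring and 9.26% in summer (unadjusted p under 0.05 and fold over 2), and in 8.98% and 14.7% every MII library was below every GV library. The last condition held for all 4 members in spring and for 3 in summer, HINT2 being the exception, and nothing is read from these counts because the contrast chose the genes.

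The order of the changes depended on the scale. As ratios of mean FPKM, TMEM11 was 26.2-fold lower in spring and 26.7-fold lower in summer MII oocytes, and FAM162A was 22.5-fold and 19.1-fold lower. HAX1 was 8.56-fold and 16.0-fold lower, and HINT2 9.34-fold and 8.34-fold. FAM162A, whose MII level is below the pseudocount of 1, thus comes after HAX1 on the log2(FPKM + 1) scale but before it as a ratio. On the share of recovered reads the folds were 31.0 and 31.2 for TMEM11, 28.0 and 22.8 for FAM162A, 10.7 and 19.1 for HAX1, and 11.8 and 9.91 for HINT2. All are shares of the RNA in a library: less RNA of these genes per oocyte and more RNA of other genes cannot be told apart, nor can fewer cells of a type and less RNA per cell.

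**Figure D2:**
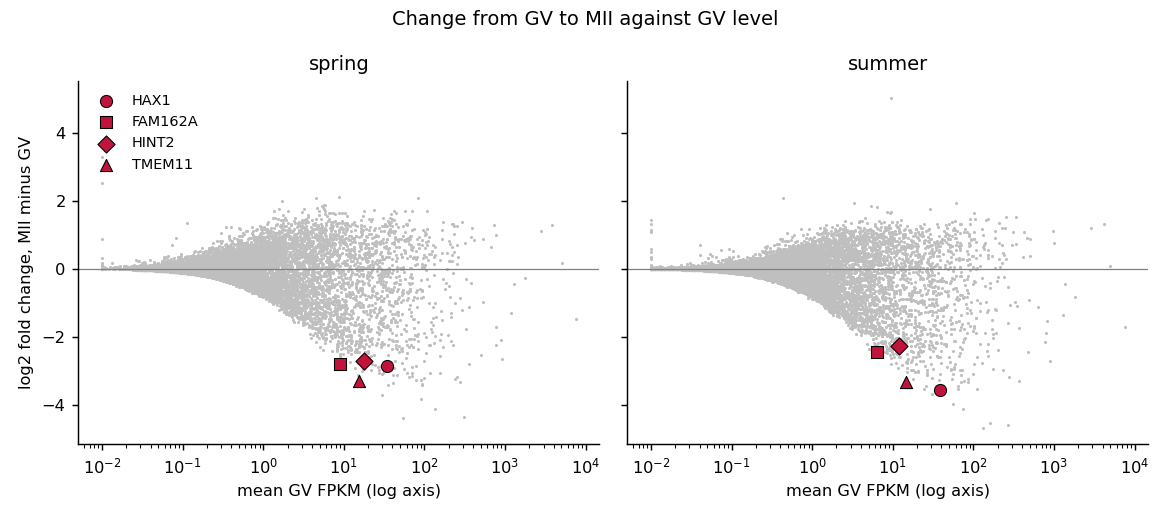
Change from GV to MII (log2(FPKM + 1), vertical) against mean GV FPKM (log axis) for the 9526 genes in spring and in summer; grey dots are genes and red symbols the 4 members. The members lie near the lower edge of the cloud, at −2.26 to −3.57, with mean GV levels between 6.43 and 38.5 FPKM.

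The share left varied from library to library. Over the 6 spring MII libraries HAX1 kept 5.26% to 18.6% of the spring GV mean, and over the 6 summer MII libraries 3.48% to 9.20% of the summer GV mean. HINT2 kept 4.78% to 14.7% in spring and 7.61% to 24.2% in summer, FAM162A 2.32% to 8.69% and 2.90% to 8.75%, and TMEM11 1.85% to 6.32% and 1.90% to 7.25%. The coefficient of variation of the gene's share of recovered reads over MII libraries ranged from 28.9% (HAX1 in summer) to 63.3% (TMEM11 in summer), where the number of reads alone gives 13.8% to 19.9%. In GV oocytes it ranged from 20.5% to 49.1%, where the number of reads alone gives 2.44% to 7.22%.

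**Figure D3:**
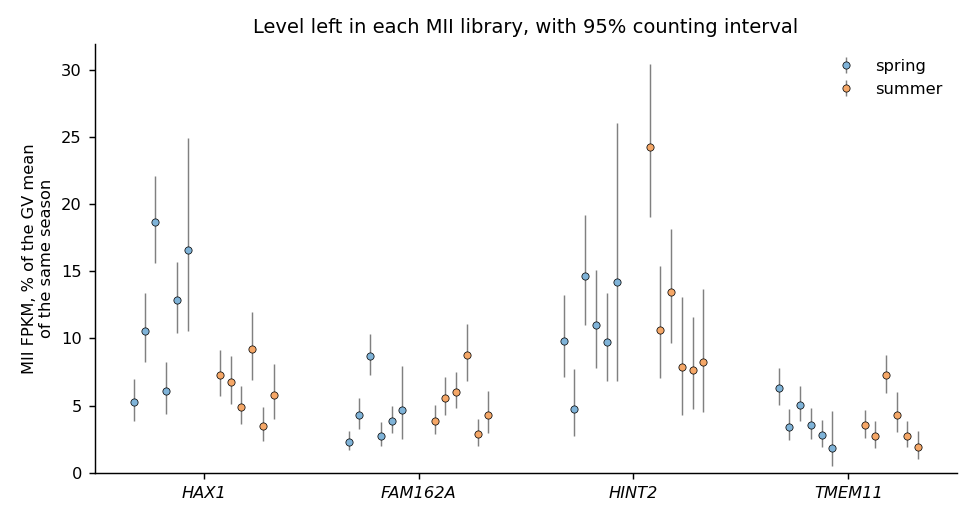
FPKM of each MII library as a percentage of the mean GV FPKM of the same season, with 95% Poisson counting intervals; blue points are spring and orange points summer libraries. HINT2 in summer MII replicate 1 (24.2%) and HAX1 in spring MII replicate 3 (18.6%) are the highest points of their genes, and no TMEM11 point is above 7.25%.

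No difference between summer and spring oocytes in the 4 genes passed an adjusted p under 0.05. In GV oocytes, summer means were 1.14 times the spring mean for HAX1, 0.719 times for FAM162A, 0.669 times for HINT2 and 0.936 times for TMEM11. In MII oocytes they were 0.606, 0.848, 0.749 and 0.916 times the spring mean, in the same order. Summer and spring libraries overlapped in all 8 of these comparisons; over all genes they did not overlap in 0.178% in GV and 0.178% in MII oocytes. None of the members was called, against 0.0315% of all genes called in GV oocytes and 0.042% in MII oocytes. FAM162A and TMEM11 had means below 1 FPKM in MII oocytes of both seasons, where the pseudocount of 1 leaves no room for a call.

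HINT2 had the lowest p in GV oocytes. Its log2 difference, summer minus spring, was −0.72 (SE 0.39, 95% interval −1.56 to 0.11, limma p = 0.0838, adjusted p = 1), and the two-sided exact permutation test, over 924 ways to split 12 libraries into the seasons, gave p = 0.0325, before any correction for the 8 such tests. The median of spring libraries was above 5 of 6 summer libraries. Without the 3 libraries of low depth the means were 14.0 ± 3.04 FPKM in summer and 18.6 ± 3.37 in spring (SD, n = 5 each, exact permutation p = 0.0476), and the log2 difference shrank to −0.39. Without summer GV replicate 2 alone it was −0.34, so that summer GV replicate 2 by itself moved the difference by over 1.5 times.

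FAM162A in GV oocytes was also lower in summer by value, with 6 of 6 summer libraries below the spring median. The log2 difference was −0.41 (SE 0.22, 95% interval −0.89 to 0.06, limma p = 0.0844, adjusted p = 1, exact permutation p = 0.0584). On recovered reads the limma voom fit, added after the values were seen, gave −0.55 (95% interval −1.07 to −0.03, adjusted p = 1). An unadjusted p under 0.05 was reached by 1.55% of all genes in GV and 2.11% in MII oocytes in the fit of log2(FPKM + 1).

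HAX1 in MII oocytes had 6 of 6 summer libraries below the spring median, with a log2 difference of −0.49 (SE 0.26, 95% interval −1.06 to 0.09, limma p = 0.09, adjusted p = 1, exact permutation p = 0.104). In GV oocytes the sign was the opposite, 0.22 (SE 0.22, 95% interval −0.25 to 0.69, limma p = 0.33, exact permutation p = 0.288). The change from GV to MII was accordingly larger in summer by 0.71 on the log2 scale for HAX1, a value given without a test because it shares the contrast that chose the gene. The summer change minus the spring change was 0.35 for FAM162A, 0.45 for HINT2 and −0.03 for TMEM11.

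The remaining season differences were small beside their intervals. TMEM11 differed by −0.02 in GV oocytes (95% interval −0.64 to 0.60, exact permutation p = 0.935) and by −0.05 in MII oocytes (−0.36 to 0.26, exact permutation p = 0.727). FAM162A in MII oocytes differed by −0.06 (−0.28 to 0.16, exact permutation p = 0.593) and HINT2 in MII oocytes by −0.28 (−0.75 to 0.19, exact permutation p = 0.221). These intervals are narrow on a scale with a pseudocount of 1 when a gene is below 1 FPKM, as FAM162A and TMEM11 mostly were in MII oocytes. On recovered reads the difference of TMEM11 in MII oocytes was −0.26 and that of FAM162A −0.22 (limma voom), with wide intervals that covered 0.

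**Figure D4:**
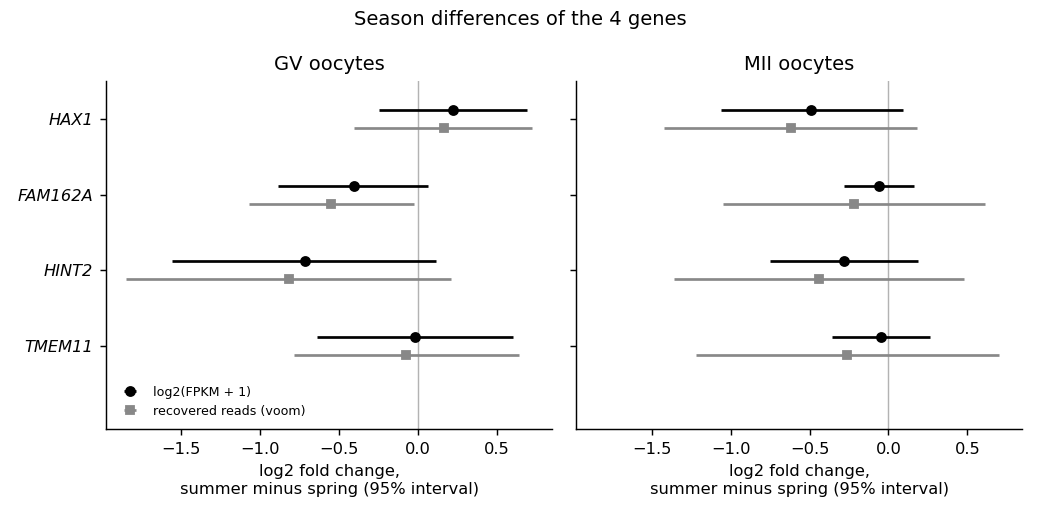
Summer minus spring difference of each gene with its 95% interval, in GV oocytes (left) and MII oocytes (right); black circles are log2(FPKM + 1) and grey squares are recovered reads fitted by voom. All intervals cover 0 except that of FAM162A in GV oocytes on recovered reads, which ends at −0.03.

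Within groups the 4 genes did not vary together as a set, although some pairs did. Over the 24 libraries every pair correlated at r between 0.88 and 0.96, which the gap between GV and MII oocytes sets. As deviations from the group means over the 12 GV libraries, HAX1 and TMEM11 went together (Pearson r 0.84, Spearman rho 0.71, r 0.80 without the 2 libraries farthest from the median). FAM162A went the other way from TMEM11 (r −0.74, rho −0.69, r −0.81 without the 2 farthest) and from HINT2 (r −0.53, rho −0.80, r −0.51). Single libraries show this: spring GV replicate 3 had the lowest HAX1 (19.4 FPKM) and TMEM11 (7.36) of its group with 10.7 FPKM of FAM162A, beside its high VIM, INHA and AMH, and summer GV replicate 2 had the lowest TMEM11 (9.40) and HINT2 (2.03) and the highest FAM162A (7.90). Without spring GV replicate 3 (n = 11) HAX1 and TMEM11 had r 0.72 and rho 0.32, and FAM162A and TMEM11 r −0.75 and rho −0.85. Over the 12 MII libraries HAX1 and FAM162A went together (r 0.81, rho 0.76, r 0.73), and spring MII replicate 3 was the highest of its group for HAX1, FAM162A and HINT2. The other MII pairs were between −0.25 and 0.30. These values describe points that share a library and its depth and carry no test.

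None of the listed genes next to the members was called in any of the 4 comparisons. HAX1 lies between ATP8B2 and UBAP2L, FAM162A between CSTA and KPNA1, HINT2 between SPAG8 and TMEM8B, and TMEM11 between DHRS7B and NATD1. The means of these 8 genes were at most 0.472 FPKM in each group. With a pseudocount of 1, no fall from such a level can pass a fold of 2. The lack of calls therefore does not show that these genes kept their level. DHRS7B, which ends 1019 bases from TMEM11 on the opposite strand, was lower in MII oocytes by limma (−0.37, SE 0.10, adjusted p = 0.0163 in spring and −0.35, SE 0.06, adjusted p = 0.0014 in summer). Its means were 0.364 FPKM in spring GV and 0.0441 in spring MII oocytes, and 0.353 and 0.0571 in summer. It missed a call only by the fold on the log2(FPKM + 1) scale. SPAG8, 2390 bases from HINT2, had a change of −0.37 (adjusted p = 0.241) and −0.41 (adjusted p = 0.0646). Its means were 0.472 FPKM in spring GV and 0.037 in spring MII oocytes, and 0.462 and 0.062 in summer.

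Among the 3665 genes with a mean of at least 1 FPKM, those most like each member over the 24 libraries were genes that were also lower in MII oocytes. The gap between GV and MII oocytes, by which the members were chosen, sets these correlations, so they are given as a description only. For HAX1 these were APTX (r 0.973), SAR1A, PSMB7, DYNLRB1 and TMEM11 (r 0.964). FAM162A had CNPY2, MRPL27, H2AFV (r 0.978 each), SAR1A (0.975) and RPS6 (0.972), HINT2 had NHP2 (0.961), NAXE, MRPS6, C5H12orf29 and NDUFA8 (0.946), and TMEM11 had MRPL28 (0.984), C7H19orf53, POLR1E, ALAD and APTX (0.976). MRPL27, MRPL28 and MRPS6 are mitochondrial ribosomal proteins, NDUFA8 a subunit of complex I, and APTX a DNA repair enzyme of the histidine triad superfamily.

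With the group means removed, APTX was again nearest to HAX1, and NAXE and NHP2 were again among the nearest to HINT2, while the genes nearest to FAM162A and TMEM11 were others. For HAX1 they were APTX (r 0.67), SNUPN, ATP6V1E1, NUDT16 and YIF1A (0.60), and for HINT2 NAXE (0.78), YAE1D1, NHP2, DTYMK and RABAC1 (0.74). TMEM11 had GAMT (0.89), FAM110A, UBL7, SRM and AIMP2 (0.82). The 5 nearest FAM162A were PDCD5 (0.83), SMIM11A (0.81), MORF4L1 (0.80), CCDC59 and FRA10AC1 (0.79 each). Their changes from GV to MII in spring and summer were 0.48 and 0.64 for PDCD5, 0.67 and 0.74 for SMIM11A, and 0.48 and 0.19 for MORF4L1. CCDC59 had 0.84 and 0.63, and FRA10AC1 had −0.38 and −0.57, where FAM162A had −2.81 and −2.45.

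The genes of related pathways are given from lists written by function, with earlier results of these data known. Across all genes, 3.57% were called higher and 8.25% lower in MII oocytes in spring, and 2.2% and 9.26% in summer. No gene of the 6 lists was called between seasons at either stage.

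Of the partners of HAX1, 8 genes were above the filter and none was called in either season, with median changes of 0.36 in spring and 0.28 in summer. PARL, named after its values were seen, had a mean of 4.55 FPKM in spring GV and 9.16 in spring MII oocytes (log2 fold change 0.90, SE 0.23, limma adjusted p = 0.0123) and of 5.14 and 9.69 in summer (0.81, SE 0.21, adjusted p = 0.0119), below the fold of a call. HTRA2, the protease that HAX1 presents to it, had −0.48 (SE 0.34, adjusted p = 0.31) and 0.42 (SE 0.30, adjusted p = 0.306). CLPB was not above the filter. In the list of mitochondrial proteases and chaperones, CLPP, the matrix protease subunit, was the only called gene of 18 (−1.28, SE 0.35, limma adjusted p = 0.019 in spring and −2.13, SE 0.29, adjusted p = 0.000194 in summer), and the list medians were −0.00 and −0.05. By an adjusted p under 0.05 alone, 4 genes of the list were lower and 1 higher in spring, and 6 lower and 2 higher in summer. LONP1, named after its values were seen, was among the lower ones (adjusted p = 0.00388 and 0.00452). Its means were 0.607 FPKM in spring GV and 0.112 in spring MII oocytes, and 0.795 and 0.118 in summer, too low for a call.

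Of the 16 tested genes for cristae and MICOS, to which TMEM11 is related, 3 were called lower in both seasons and 1 was called higher in spring. Those called lower were the prohibitins PHB and PHB2, which form rings in the inner membrane, and APOO, a MICOS subunit. PHB2 had 13.2 FPKM in spring GV and 2.97 in spring MII oocytes (−1.82, SE 0.22, limma adjusted p = 0.000153) and changed by −2.03 in summer (SE 0.32, adjusted p = 0.000557). PHB changed by −1.36 and −1.71, and APOO by −1.36 and −1.18. CHCHD2, which is not a structural MICOS subunit, was called higher in spring (1.07, SE 0.48, adjusted p = 0.12) and not in summer (0.64, adjusted p = 0.168). The list medians were −0.13 and −0.21. By a limma adjusted p under 0.05 alone, 4 genes of the list were lower in spring and 7 in summer, and 0 were higher. CHCHD6, named after its values were seen, was among them in both seasons (adjusted p = 0.0152 and 0.00236). Its means were 0.563 FPKM in spring GV and 0.0699 in spring MII oocytes, and 0.464 and 0.0505 in summer.

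Of the 20 tested death factors outside the BCL2 family, 2 were called higher and 2 lower in spring, and 1 higher and 2 lower in summer, with medians of 0.05 and 0.06. By a limma adjusted p under 0.05 alone, 3 were higher and 4 lower in each season. DIABLO, named after its values were seen, was among the lower ones (adjusted p = 0.0271 in spring and 0.0003 in summer). Its GV means of 0.367 and 0.363 FPKM were too low for a call. VDAC3, an outer membrane channel, fell in both seasons (−1.63, SE 0.40, limma adjusted p = 0.0112 and −2.04, SE 0.26, adjusted p = 0.000113), while its paralogue VDAC1 rose in spring (1.28, SE 0.27, adjusted p = 0.0049) and had 0.94 (adjusted p = 0.0262), below the fold of a call, in summer. ENDOG, the mitochondrial nuclease, was called lower in spring (−1.29, SE 0.18, adjusted p = 0.000471) and had −0.97 (SE 0.21, adjusted p = 0.00391) in summer. SIVA1, a pro-apoptotic factor, was called lower in summer (−1.53, SE 0.34, adjusted p = 0.0052) and had −0.93 (SE 0.26, adjusted p = 0.0192) in spring. Both thus missed a call in the other season only by the fold on the log2(FPKM + 1) scale. In summer the means of ENDOG were 1.65 FPKM in GV and 0.313 in MII oocytes. HIGD1A, a hypoxia-induced inner membrane protein, rose in both (1.29, SE 0.30, adjusted p = 0.00914 and 1.45, SE 0.18, adjusted p = 0.000106).

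FAM162A belongs to the targets of HIF-1, of which, with the genes of the pathway, 27 others were tested. In spring 1 was called higher and 4 lower, and in summer 1 higher and 3 lower, with medians of −0.05 and −0.02. By a limma adjusted p under 0.05 alone, 2 were higher and 5 lower in spring, and 1 higher and 6 lower in summer. Those called lower in both seasons were the glycolytic enzymes ENO1 (−1.91, SE 0.33, limma adjusted p = 0.00165 and −1.62, SE 0.19, adjusted p = 7.82e-05) and ALDOA (−2.09 and −1.68), and EGLN2, a prolyl hydroxylase that marks HIF for degradation (−1.58 and −1.57). ANKRD37 was called lower in spring (−1.15) and had −0.55 (SE 0.18, limma adjusted p = 0.0373) in summer, and HIGD1A was the gene called higher. LDHA, named after its values were seen, had −0.95 (SE 0.27, adjusted p = 0.024) in spring and −0.99 (SE 0.20, adjusted p = 0.00282) in summer. It missed a call in both seasons only by the fold on the log2(FPKM + 1) scale.

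In the histidine triad superfamily, 5 genes beside HINT2 were tested. APTX was called lower in both seasons (4.51 FPKM in spring GV and 0.581 in spring MII oocytes, −1.78, SE 0.19, limma adjusted p = 0.000101, and −1.87, SE 0.13, adjusted p = 2.7e-06 in summer). GALT, the enzyme of galactose use, was called lower in summer (−1.19, SE 0.21, adjusted p = 0.00111). In spring GALT had −0.73 (SE 0.23, adjusted p = 0.0361) and missed a call only by the fold on the log2(FPKM + 1) scale. HINT1, the cytosolic relative, had 7.47 and 2.98 FPKM in spring and summer GV oocytes and changes of −0.96 (SE 0.52, adjusted p = 0.188) and −0.53 (SE 0.23, adjusted p = 0.101). HINT3 was at or below 0.266 FPKM in every group mean. The list medians were −0.73 and −0.53. By a limma adjusted p under 0.05 alone, 2 genes of the list were lower and 0 higher in spring, and 3 lower and 1 higher in summer.

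**Figure D5:**
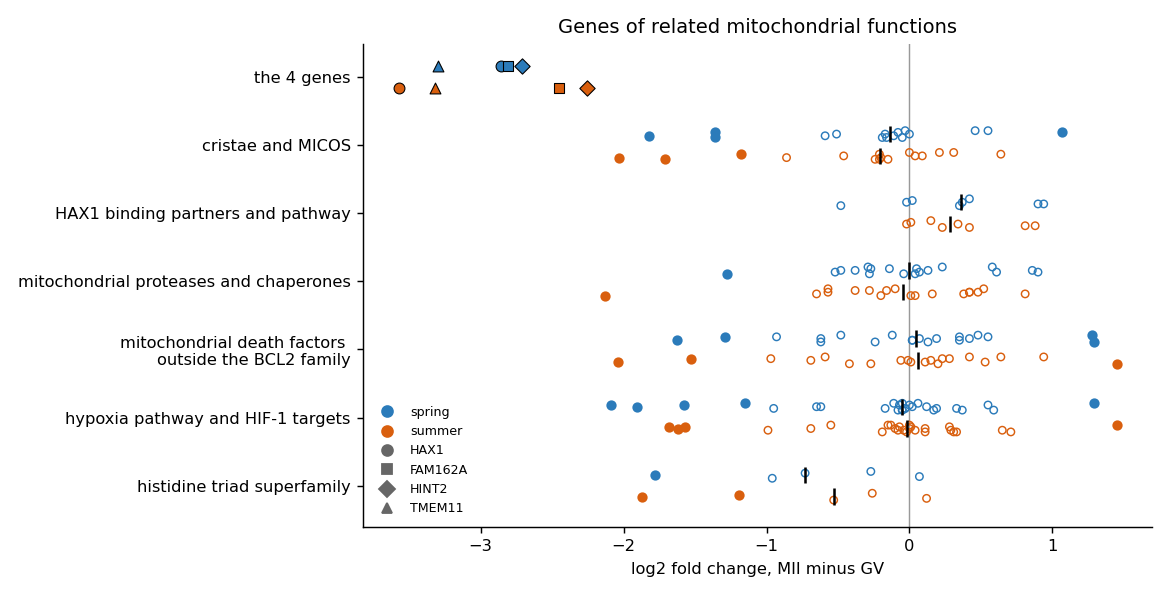
Change from GV to MII on the log2(FPKM + 1) scale of the members (top row) and of each tested gene of 6 related lists; blue is spring, orange is summer, filled symbols are called genes and black ticks are list medians. The members lie between −2.26 and −3.57, while the lists have medians between −0.73 and 0.36 and hold genes on both sides of 0.

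Markers of the cells themselves moved as well. Of 14 oocyte markers, 3 were called higher and 2 lower in spring and 1 higher and 3 lower in summer. ZAR1 and NLRP5, both maternal effect genes, were called lower in both seasons (ZAR1 −2.32, SE 0.39, limma adjusted p = 0.00129 and −2.94, SE 0.40, adjusted p = 0.000194). DPPA3 was called higher in both (1.33, SE 0.32, adjusted p = 0.00927 and 1.19, SE 0.20, adjusted p = 0.000813). BMP15 and ZP2 rose in spring, and ZP3 was called lower in summer (−1.50, adjusted p = 0.0783). Of 16 tested cumulus markers, HAS2, the hyaluronan synthase of cumulus expansion, rose in both seasons (1.06, SE 0.20, adjusted p = 0.00277 and 1.04, SE 0.24, adjusted p = 0.00557), with means of 0.297 and 0.486 FPKM in GV and 1.82 and 2.15 in MII oocytes, and was the only one called. The list median was −0.15 in spring and 0.00 in summer. Among the others, named after their values were seen, GREM1 had −0.37 (adjusted p = 0.126) and −0.45 (SE 0.13, adjusted p = 0.0166), while VIM (spring means 13.1 and 0.121 FPKM in GV and MII oocytes, −1.30, SE 0.87, adjusted p = 0.285) and INHA (6.64 and 0.249, −1.01, SE 0.73, adjusted p = 0.322) had spring GV means set by replicate 3. The summed FPKM of 19 cumulus markers ranged over the libraries from 38.2 to 588 in spring GV, 34.0 to 124 in summer GV, 35.0 to 162 in spring MII and 27.2 to 85.4 in summer MII oocytes, and its part in the values of the 4 genes was not tested. Without spring GV replicate 3 and the 3 libraries of low depth, an alternative added after the data were seen, the spring change of HAX1 was −3.09 (SE 0.30), of FAM162A −2.65 (SE 0.18), of HINT2 −2.86 (SE 0.21) and of TMEM11 −3.42 (SE 0.24), and the GV season differences were 0.12, −0.30, −0.43 and −0.10.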

How the data were processed

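Libraries were made by the authors from pooled oocytes with a Smart-seq2 kit and sequenced in pairs. According to the methods, trimmed reads were aligned to UMD3.1.1 with STAR 2.5.3a (the labels name UMD3.1). The authors deposited FPKM values, described as per kilobase of exon. The values themselves sum to between 86768.1 and 86768.2 in each library, have a minimum of 0.01 and follow the whole gene span, so they had been scaled to a common total. Recovered reads are whole multiples of each library's step.

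Genes over 0.1 FPKM in at least 1 of 24 libraries (9526) entered limma (version 3.58.1, under R version 4.3.3) as log2(FPKM + 1), with a trend in the spread and only the groups compared in each fit, and a call took the thresholds of the methods, a raw p under 0.05 with a fold over 2. Adjusted p is Benjamini-Hochberg over all of these genes. Exact permutation tests used log2(FPKM + 1) per library. Reads were recovered with numpy 2.4.6 and pandas 2.3.3 (Python 3.11.15), and the steps were tested on simulated data. Replicates are pools from different animals by the methods.

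The members and the lists were chosen with earlier results of these data known. Named genes are the members, the nearest listed gene on each side, the 5 genes most correlated with each member (before and after removal of group means), and up to 4 called genes of each list with the smallest p in each direction. The 29 symbols listed at 2 loci were kept as separate entries. Alternatives were other pseudocounts, filters, scaling and fits, a replicate block, and leaving out libraries. Symbols of all 4 members matched the RefSeq gene table.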

Additional observations from a re-analysis of the deposited data

Results flagged for a closer look

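Within the 16 sets of 6 libraries (4 genes in 4 groups), a lone high or low library was sought. Its gap to the nearest library was divided by the range of the group. Dixon's 95% critical value was exceeded by 2 libraries, both high. FAM162A in spring MII replicate 3 was at 0.777 FPKM, with the next library at 0.418 (gap over range 0.63), and the same library was the highest of its group for HAX1 and HINT2. HINT2 in summer MII replicate 1 was at 2.90 FPKM, with the next library at 1.61 (gap over range 0.649). At this level 5% of groups exceed the value by chance.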

How the results depend on the processing

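All 4 members were lower in MII oocytes in both seasons under each alternative run, and only the size moved. With a pseudocount of 0.1 the spring change was −4.23 for FAM162A, −3.22 for HINT2 and −4.46 for TMEM11, and the summer change −4.00 for HAX1, −3.92 for FAM162A and −4.57 for TMEM11. With no pseudocount these were −4.58, −3.29 and −4.71 in spring and −4.06, −4.31 and −4.84 in summer. On recovered reads (voom, added after seeing the data) HAX1, FAM162A, HINT2 and TMEM11 changed by −3.51, −4.88, −3.62 and −4.92 in spring and by −4.29, −4.54, −3.25 and −5.09 in summer, where the median of all genes was −0.49 and −0.48.

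The genes called between seasons were few. Their count stayed within 1.5 times with no filter, with a mean of at least 1 FPKM and with the replicate block at both stages, without the libraries of low depth in GV oocytes (3) and with all 4 groups in the fit in MII oocytes (6). Of 3 called in GV oocytes, 0 were called on the adjusted p (148 had an unadjusted p under 0.05 by limma, and voom gave 0 adjusted and 243 unadjusted), 37 with a pseudocount of 0.1, 116 with none, 6 with median-of-ratios scaling, 14 with all 4 groups in the fit, 5 without spring GV replicate 3 (highest AMH, INHA and VIM) and the libraries of low depth, and 148 on recovered reads. Of 4 in MII oocytes, 0 were called on the adjusted p (201 unadjusted, and 0 and 249 by voom), 23 and 102 with these pseudocounts, 0 with median-of-ratios scaling, 9 without the 3 libraries of low depth and 159 on recovered reads. From GV to MII, 1126 genes in spring and 1092 in summer became 2628 and 2521 with a pseudocount of 0.1, 3536 and 3592 with none, and 3965 and 3845 on recovered reads. Median-of-ratios scaling gave 190 genes higher and 959 lower in spring in place of 340 and 786. No member passed an adjusted threshold between seasons under any alternative. The unadjusted p fell under 0.05 for FAM162A in GV oocytes with all 4 groups in the fit, with median-of-ratios scaling and on recovered reads, and for HINT2 with all 4 groups. TMEM11 in GV oocytes turned to 0.12 without the 3 libraries of low depth.

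Leaving out each library in turn gave 3 to 13 called genes between seasons in GV oocytes and 2 to 16 in MII oocytes, 1010 to 1348 from GV to MII in spring and 1007 to 1195 in summer. In GV oocytes each library but spring replicate 5 (4 genes) and summer replicate 2 (3) moved the count by over 1.5 times, and in MII oocytes so did spring replicates 1 (2 genes), 2 (9), 5 (10) and 6 (9) and summer replicates 1 (16) and 3 (13). The season difference of HAX1 ranged from 0.07 to 0.31 in GV and from −0.63 to −0.35 in MII oocytes, that of FAM162A from −0.52 to −0.33 and from −0.10 to 0.01, that of HINT2 from −0.88 to −0.34 and from −0.42 to −0.21, and that of TMEM11 from −0.20 to 0.10 and from −0.14 to 0.02. The change from GV to MII ranged from −3.01 to −2.71 in spring and −3.65 to −3.46 in summer for HAX1, −2.91 to −2.73 and −2.52 to −2.40 for FAM162A, −2.78 to −2.59 and −2.65 to −2.11 for HINT2, and −3.47 to −3.17 and −3.43 to −3.26 for TMEM11. The unadjusted limma p went under 0.05 for FAM162A in GV oocytes without spring replicate 5, for HINT2 without summer replicate 5, for HAX1 in MII oocytes without spring replicate 1 or 4, and for HINT2 without summer replicate 1.

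Libraries share only a replicate number. The correlation of same-numbered deviations was between −0.441 and 0.764 and was not over 0.1 for all 6 numbers in any comparison. Between spring and summer MII oocytes it was 0.764, 0.677, 0.426 and 0.694 for numbers 1, 2, 5 and 6, each best with its own number, and −0.0904 and −0.441 for 3 and 4. With the number as a replicate block, 4 and 6 genes were called between seasons (GV and MII) and 1137 and 1089 from GV to MII (spring and summer), and no call of a member changed. MII values rest on few reads, as few as 4 for TMEM11 in a library. The cause of the other shifts was not tested.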
